A study of Mus musculus with 6 samples.

Results

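Neuropeptide receptors were examined in hippocampal RNA of mice given repeated skin injections of substance P (SP), a neuropeptide of sensory nerves. The 35 genes comprise receptors for cholecystokinin (CCK), relaxins, PACAP, VIP, somatostatin, neuropeptide Y, opioids, CRH, galanin, neurotensin, melanocortins, orexins, vasopressin, oxytocin, bombesin-like peptides, TRH, endothelins and CGRP. They were chosen by gene symbol from the 55421 genes of the count table, and the receptors of SP and other tachykinins were left out. All are G protein-coupled receptors except *Ramp1*, which encodes the single-pass membrane protein that turns the receptor encoded by *Calcrl* into the CGRP receptor. The choice used no measured value of its own, but the genes were proposed with earlier results of these libraries known.

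The SP group was 3 male wild-type C57BL/6N mice, 8 to 10 weeks old, injected subcutaneously with SP (10 µM, 100 µL) for 14 days, and the vehicle group was 3 such mice that received saline in the same volume. Each hippocampus sample gave 1 stranded mRNA library, and the libraries held between 22349941 and 27605937 counts. Mice carry the numbers 1 to 3 in either group, and since the labels give the same number as the batch, a batch is 1 SP and 1 vehicle mouse. A lower or higher level below is that of the SP libraries as labelled. These directions rest on the labels, since no gene of the table shows which mice had received the peptide, and they are uncertain: an exchange of the group labels would reverse the sign of every difference given here and leave its size and test as they are.

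Neuropeptides are stored in dense-core vesicles, are released mainly during strong or repeated firing and act at a distance from their release site, so the cells that respond are set largely by which receptor they carry. Receptors coupled to Gs raise cAMP, those coupled to Gi/o lower cAMP and open potassium channels, and those coupled to Gq/11 release calcium through phospholipase C. In the hippocampus most of the peptides come from GABAergic interneurons or from afferent fibers, and their receptors tune excitability, transmitter release and plasticity.

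Markers of the main hippocampal cell types were detected. All 6 markers of CA1 pyramidal cells, all 6 of CA3 pyramidal cells and all 6 of dentate granule cells had at least 10 counts in every library. So did all 14 markers of cortical projection and subplate neurons, all 7 of choroid plexus and all 5 of striatal neurons. Detection at this level therefore does not identify the tissue. Libraries SP 1 and SP 2 stood apart from the others. In SP 1 the 7 markers of choroid plexus summed to 173 CPM (counts scaled to the normalized library size). Their sum was 2793 CPM in SP 2, 3946 CPM in SP 3 and 3785 to 4714 CPM under vehicle. In SP 2, 15 of the 34 receptor genes that could be tested had their lowest level. With bulk tissue, fewer cells of a type and less RNA per cell cannot be told apart.

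Of the 35 genes, 30 were above 10 counts in all 6 libraries. *Avpr1a* and *Avpr1b*, receptors of vasopressin, were above 10 counts in 4 libraries each, and *Galr1*, a galanin receptor, in 2. *Nmbr* and *Ednra* share exonic bases with genes on the opposite strand, as does *Oprm1*, and whether the counting used strand is not given in the sources used here. *Trhr2*, a TRH receptor, had 6, 2 and 3 counts in the vehicle libraries and 1, 2 and 2 in the SP libraries, and was the 1 gene that did not pass the filter on low counts. The fifth gene outside the 30, *Grpr*, the receptor of gastrin-releasing peptide, had 13, 14 and 18 counts under vehicle and 10, 17 and 16 under SP.

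To compare levels between genes, CPM were divided by the exonic length of each gene in kilobases. On this scale the receptors spanned from 39.4 CPM per kilobase for *Ntsr2* to 0.0825 CPM per kilobase for *Trhr2*, as means of 6 libraries, and 24 of the 35 were above 1 CPM per kilobase. *Ntsr2*, the low-affinity neurotensin receptor that rodent astrocytes also express, was at 38.7 ± 1.48 CPM per kilobase under vehicle and 40.1 ± 1.73 under SP (SD, n = 3 mice each). *Adcyap1r1*, which encodes the PACAP receptor PAC1, followed at 29.7 ± 0.941 and 29.0 ± 0.392 CPM per kilobase (SD, n = 3 each). *Ramp1* was next with 17.0 CPM per kilobase over the 6 libraries. The ranges of these 3 genes over the 6 libraries did not overlap.

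Behind them, *Npy2r*, *Ednrb*, *Sstr4* and *Oprl1* lay between 15.1 and 10.7 CPM per kilobase, and each overlapped its neighbor in this order. *Sstr3* and *Npy1r*, at 8.70 and 7.72 CPM per kilobase, also overlapped each other. From *Sstr1* at 4.60 CPM per kilobase downward, every gene overlapped the next, so the order of neighbors did not exceed the spread between libraries. Genes farther apart in this order could still be separate, as *Vipr1* at 4.22 to 4.70 and *Oxtr* at 2.22 to 2.44 CPM per kilobase over the 6 libraries. *Cckbr* was the fourteenth gene at 3.95 CPM per kilobase and *Rxfp1* the eighteenth at 2.09. The *Rxfp1* value was 3.91 CPM per kilobase when the length of the longest transcript was used.

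**Figure D1:**
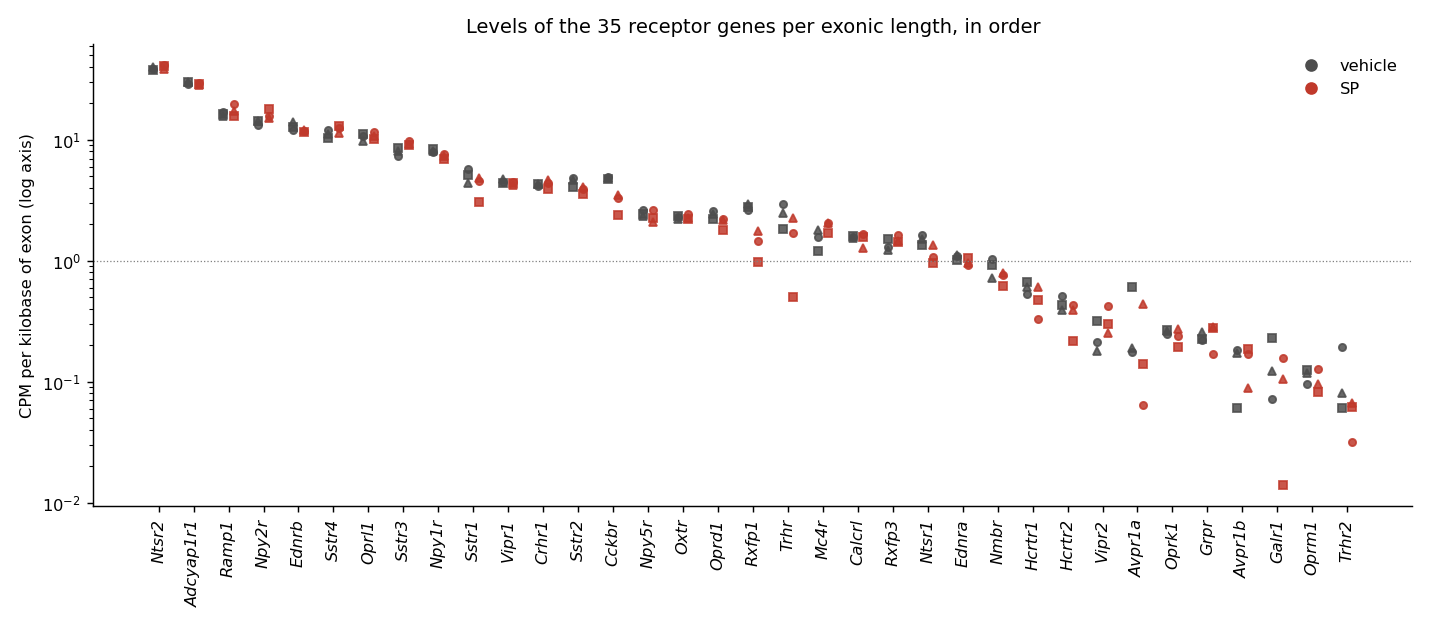
CPM per kilobase of exon (log axis) of the 35 receptor genes in the order of their means, with 1 point for each library, gray for vehicle and red for SP, and a dotted line at 1 CPM per kilobase. *Ntsr2* and *Adcyap1r1* lie above all others in every library, and 24 genes have a mean above the line.

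The comparison of SP with vehicle asks which of these receptors differed in expression after chronic peripheral SP. Differences were called at a false discovery rate (FDR) below 0.1 and an absolute log2FC above 0.3, the thresholds used in the study. Here log2FC is the log2 fold change of SP over vehicle and SE its standard error. For edgeR, SE was derived from the test, as the absolute log2FC divided by the square root of the F statistic. None of the 34 tested receptor genes was called with edgeR's quasi-likelihood test and the replicate number as a block, where 0.0293% of the 17069 tested genes were called. DESeq2 with the same block called 1, *Rxfp1* (0.253% of all genes), and DESeq2 without the block called 2, *Rxfp1* and *Cckbr* (0.774% of all genes), while limma-voom and edgeR without the block called 0 (0.0117% of all genes each). Without the filter on low counts edgeR called 3, *Rxfp1*, *Cckbr* and *Trhr* (1.37% of all genes). With the filter and the block, edgeR called 0 at an FDR below 0.2 (0.0469% of all genes). With 1 replicate pair left out, 0, 1 and 1 receptor genes were called without replicates 1, 2 and 3, where the shares of all genes were 0.0534%, 0.0776% and 0.215%. With 1 mouse left out and no block, the number was 0, 1 and 2 without SP mice 1, 2 and 3 (0.0413%, 0.0236% and 2.11% of all genes) and 0 without each vehicle mouse (0.0059%, 0.0118% and 0.0236% of all genes).

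An unadjusted p under 0.05 was found by edgeR for 9 receptor genes, 26.5% of those tested, where the share over all tested genes was 10.1%. Without the block the number was 7, and the share over all genes 11.9%. *Rxfp1*, *Cckbr*, *Trhr*, *Ntsr1*, *Sstr2* and *Oprd1* had lower levels in the SP libraries, and 5.59% of all genes were lower at this p. *Npy2r*, *Sstr3* and *Mc4r* had higher levels, where 4.48% of all genes did. The groups did not overlap in 7 receptor genes, 5 with lower and 2 with higher levels under SP, where 9.03% and 9.19% of all genes were separated in these directions. The median log2FC of the 34 genes was -0.11, and that of all tested genes was 0.0015.

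**Figure D2:**
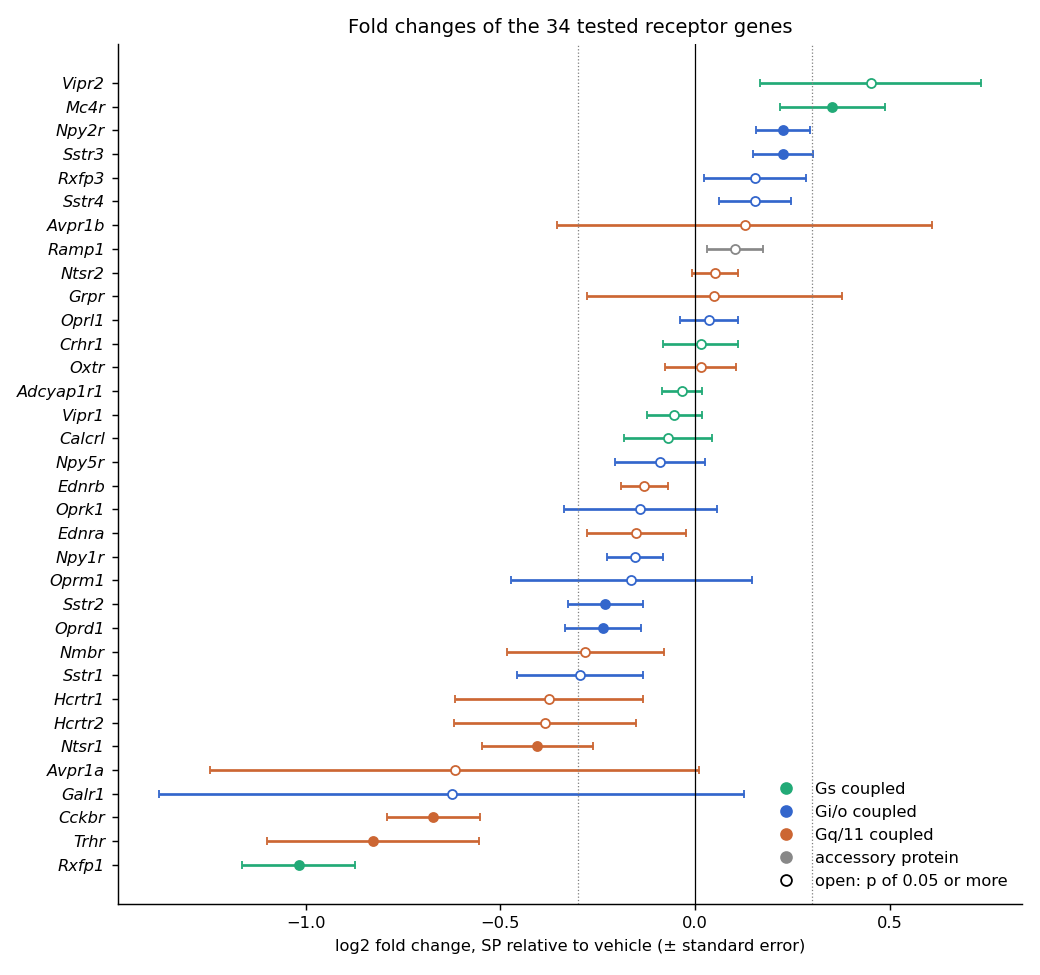
Log2FC of SP relative to vehicle with its SE for the 34 tested receptor genes, colored by the main G protein of each receptor. Filled points have an unadjusted p under 0.05, dotted lines mark -0.3 and 0.3, and *Rxfp1* lies farthest below 0 at -1.02.

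The gene *Rxfp1* (ENSMUSG00000034009, minus strand of chromosome 3, bases 79641611 to 79737880 in GRCm38) encodes the relaxin receptor, which couples to Gs. Its expression was 26.4, 27.9 and 29.6 CPM in vehicle mice 1 to 3 and 14.7, 9.75 and 17.8 CPM in SP mice 1 to 3. Every SP library was below every vehicle library, and the lowest was SP 2. SP differed from vehicle by a log2FC of -1.02 (SE 0.145, FDR 0.231 from edgeR). With DESeq2 and the replicate block it was -1.03 (FDR 3.7e-05). The gene also passed the thresholds when replicate 2 was left out, with a log2FC of -0.79 (FDR 0.0265), and when replicate 3 was left out, with -1.17 (FDR 0.0938), but not without replicate 1, with -1.11 (FDR 0.259).

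The related receptor *Rxfp3*, which binds relaxin-3 and couples to Gi/o, had 5.59, 6.51 and 5.26 CPM under vehicle and 7.03, 6.06 and 6.20 CPM under SP. Its groups overlapped, and its log2FC was 0.15 (SE 0.132, FDR 0.737). Of the relaxin ligands, *Rln1* was low at 0.806 ± 0.239 CPM under vehicle and 0.659 ± 0.129 CPM under SP (SD, n = 3 each), and *Rln3* had 1 count in 1 vehicle library and 0 in the other 5. A count of 0 allows up to 0.109 to 0.135 CPM at this depth, for counting error only.

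The gene *Cckbr* (ENSMUSG00000030898, chromosome 7 from 105425731 to 105470898, plus strand) encodes the CCK-B receptor, the main CCK receptor of the brain, which couples to Gq/11. It had 14.1, 13.6 and 13.8 CPM in vehicle mice 1 to 3 and 9.46, 6.85 and 9.97 CPM in SP mice 1 to 3. The vehicle mice were nearly alike, the SP mice were all lower, and SP 2 was again the lowest, with the groups as labelled. The estimated log2FC was -0.67 (SE 0.120, FDR 0.308 from edgeR). With DESeq2 the FDR was 0.211 with the replicate block and 0.0121 without it. Left-out mice moved the log2FC between -0.78 and -0.51.

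Its peptide gene *Cck* stood the other way, with 178, 175 and 169 CPM under vehicle and 189, 196 and 189 CPM under SP. The *Cck* groups did not overlap, and the log2FC was 0.13 (SE 0.0497, FDR 0.441).

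*Trhr* (ENSMUSG00000038760, chromosome 15 from 44196135 to 44235912, plus strand) encodes the TRH receptor, a Gq/11-coupled receptor. Its levels were 11.7, 7.36 and 9.83 CPM under vehicle and 6.78, 1.99 and 8.98 CPM under SP. All 3 replicate pairs had the lower level in the SP mouse, but SP 3 lay within the vehicle range and SP 2 far below all other libraries. The log2FC of -0.83 (SE 0.272, FDR 0.417) was -0.45 without replicate 2, -1.26 without replicate 3 and -0.29 without SP mouse 2 alone and no block. The peptide gene *Trh* varied from 0.172 to 2.25 CPM among the vehicle mice alone.

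*Ntsr1* (ENSMUSG00000027568, chromosome 2 from 180499976 to 180544980, plus strand), the high-affinity neurotensin receptor, had 6.36, 5.29 and 5.88 CPM under vehicle and 4.22, 3.78 and 5.30 CPM under SP. Library SP 3 was just above the lowest vehicle library, and the other SP libraries were below all of them. This gave a log2FC of -0.40 (SE 0.142, FDR 0.430), while that of the abundant *Ntsr2* was 0.051 (SE 0.0591, FDR 0.818). The ligand gene *Nts* had 5.59, 8.69 and 5.52 CPM under vehicle and 3.58, 2.66 and 6.96 CPM under SP, with overlapping groups and an FDR of 0.570.

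**Figure D3:**
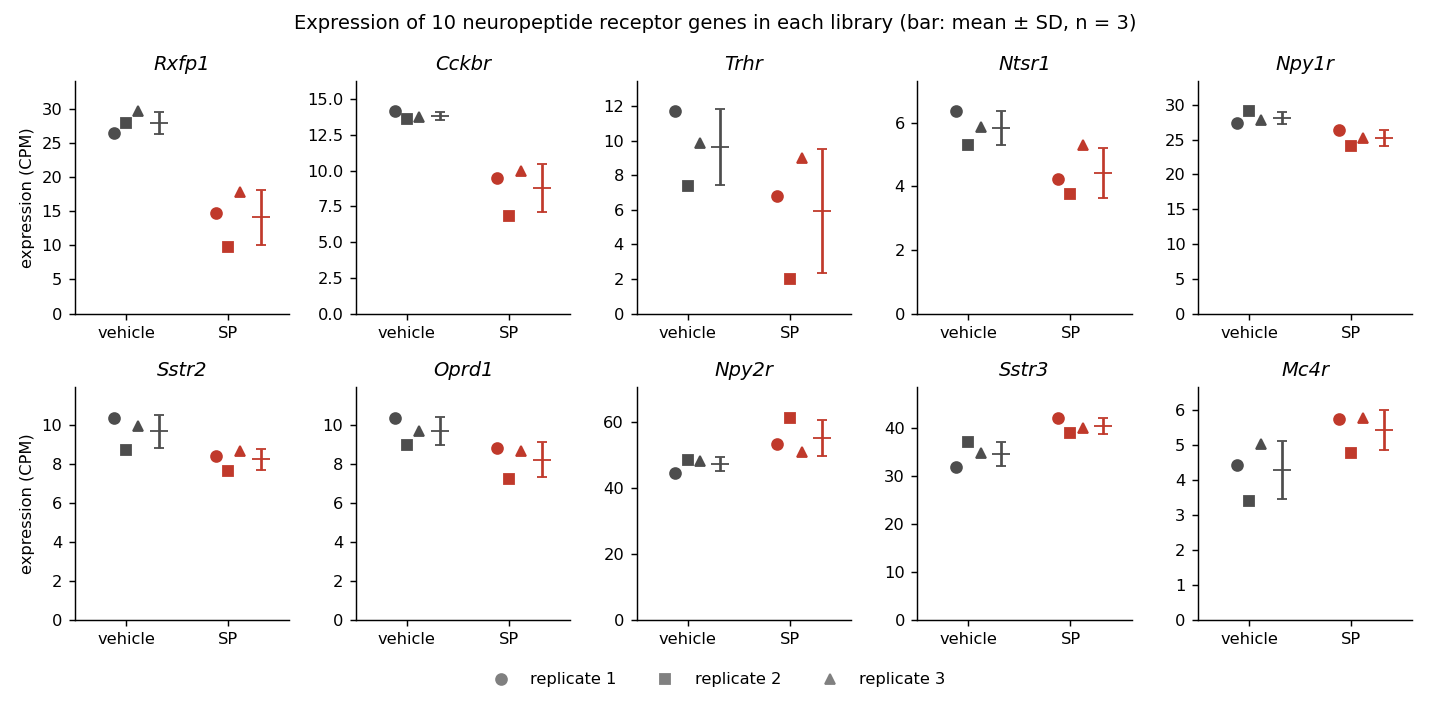
Expression in CPM of the 10 receptor genes with an unadjusted p under 0.05 or with groups that did not overlap, 1 point for each mouse, its shape giving the replicate number, with mean and SD (n = 3) beside the points. *Rxfp1* and *Cckbr* are lower in every SP mouse than in every vehicle mouse, whereas *Npy2r* and *Sstr3* are higher.

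The 250 bases before the transcription start are given for *Cckbr*, *Ntsr1* and *Sstr2*, whose mean level was lower under SP, and for *Npy2r*, whose mean level was higher, none of which was called. They are RefSeq sequences of GRCm38.p6, 5′ to 3′ on the strand of the gene, at chr7:105425481-105425730, chr2:180499726-180499975, chr11:113619077-113619326 and, on the minus strand, chr3:82548086-82548335. Of the 35 genes, 27 had such an entry that could be used, and *Rxfp1* and *Trhr* were not among them. *Oprd1* and *Sstr3*, also at an unadjusted p under 0.05 by edgeR, had entries that are not shown. Capitals mark matches on either strand to TGACG (the half-site of the cAMP response element, CRE), TGACGTCA (the full CRE, in which 2 half-sites overlap), GGGCGG (the GC box), TATAAA (the TATA box) and TGANTCA (the AP-1 site).
Cckbr: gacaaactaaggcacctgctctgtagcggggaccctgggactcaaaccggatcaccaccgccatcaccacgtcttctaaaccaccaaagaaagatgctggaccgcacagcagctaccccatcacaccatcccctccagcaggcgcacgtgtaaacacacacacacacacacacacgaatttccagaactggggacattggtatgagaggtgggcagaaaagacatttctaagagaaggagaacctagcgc
Ntsr1: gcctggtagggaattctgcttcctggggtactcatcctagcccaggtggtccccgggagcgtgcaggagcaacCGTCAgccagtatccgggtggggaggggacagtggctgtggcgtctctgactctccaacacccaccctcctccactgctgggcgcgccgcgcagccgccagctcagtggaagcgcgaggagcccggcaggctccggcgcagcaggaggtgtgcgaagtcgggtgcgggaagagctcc
Sstr2: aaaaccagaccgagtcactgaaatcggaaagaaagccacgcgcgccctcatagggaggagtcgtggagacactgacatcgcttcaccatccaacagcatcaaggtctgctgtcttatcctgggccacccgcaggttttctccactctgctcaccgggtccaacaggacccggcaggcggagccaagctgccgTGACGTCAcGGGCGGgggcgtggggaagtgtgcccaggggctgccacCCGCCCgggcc
Npy2r: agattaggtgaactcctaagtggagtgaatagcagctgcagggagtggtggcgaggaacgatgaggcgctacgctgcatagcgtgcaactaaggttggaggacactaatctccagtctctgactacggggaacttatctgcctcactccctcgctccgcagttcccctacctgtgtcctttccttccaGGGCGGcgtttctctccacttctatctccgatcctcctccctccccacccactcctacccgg

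The 250 bases of *Cckbr* held none of these letters. Those of *Ntsr1* held 1 CRE half-site on the minus strand, found in 17.8% of 32851 promoters of this length. Those of *Sstr2* held a full CRE, found in 1.55%, and 2 GC boxes, and those of *Npy2r* held 1 GC box. *Sstr2* was the only one of the 27 genes with an entry that held a full CRE. A GC box was found in 32.7% of the promoters, a TATA box in 12.4% and an AP-1 site in 6.75%. A match describes these letters only and does not show that a factor binds there.

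The somatostatin receptors couple to Gi/o and dampen firing and transmitter release. *Sstr2* had 10.4, 8.73 and 9.94 CPM under vehicle and 8.44, 7.64 and 8.67 CPM under SP. The groups were separated by a narrow gap, and the log2FC was -0.23 (SE 0.0966, FDR 0.489). *Sstr3*, a receptor of the primary cilium of neurons, had 31.97, 37.1 and 34.9 CPM under vehicle and 42.3, 39.1 and 40.1 CPM under SP, so that all SP mice were higher, with a log2FC of 0.22 (SE 0.0767, FDR 0.424), or 0.14 without replicate 1. *Sstr1* and *Sstr4* had log2FC values of -0.30 (FDR 0.583) and 0.15 (FDR 0.617), and their groups overlapped. The peptide gene *Sst* had 138 ± 1.17 CPM under vehicle and 124 ± 30.2 CPM under SP (SD, n = 3 each, FDR 0.656).

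The neuropeptide Y receptors, also coupled to Gi/o, lay on both sides of 0. *Npy2r*, the presynaptic receptor that restrains glutamate release, had 44.6, 48.3 and 48.2 CPM under vehicle and 53.2, 61.3 and 50.9 CPM under SP. All SP mice were higher, and SP 2 was the highest. edgeR estimated a log2FC of 0.23 (SE 0.0688, FDR 0.404), which was 0.15 without SP mouse 2 and no block. *Npy1r*, the largely postsynaptic receptor, had 27.4, 29.1 and 27.8 CPM under vehicle and 26.3, 24.1 and 25.3 CPM under SP, all SP mice being lower, with a log2FC of -0.15 (SE 0.0717, FDR 0.522), or -0.097 without replicate 2. *Npy5r* had a log2FC of -0.090 (FDR 0.835), and the gene *Npy* itself -0.020 (FDR 0.966).

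Among the opioid receptors, *Oprd1*, the delta receptor, had 10.4, 8.97 and 9.72 CPM under vehicle and 8.82, 7.22 and 8.67 CPM under SP. The highest SP library lay just below the lowest vehicle library, and the log2FC was -0.24 (SE 0.0973, FDR 0.480), or -0.15 without SP mouse 2 and no block. The nociceptin receptor gene *Oprl1*, the most abundant of the 4 per length, had 39.6 ± 2.52 CPM under vehicle and 40.6 ± 2.87 CPM under SP (SD, n = 3 each), a log2FC of 0.036 (FDR 0.902). *Oprk1* and *Oprm1*, the kappa and mu receptors, had log2FC values of -0.14 (FDR 0.849) and -0.16 (FDR 0.890). *Penk*, which encodes enkephalins, had a log2FC of -0.12 (FDR 0.789) and overlapping groups.

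*Mc4r*, the Gs-coupled melanocortin receptor known for its part in feeding, had 4.43, 3.39 and 5.04 CPM under vehicle and 5.75, 4.77 and 5.79 CPM under SP. It was higher in 3 of 3 replicate pairs, but SP 2 lay within the vehicle range. The difference amounted to a log2FC of 0.35 (SE 0.135, FDR 0.456), which was 0.20 without vehicle mouse 2 and no block. The melanocortin precursor gene *Pomc* was at 0.752 ± 0.102 CPM under vehicle and 0.955 ± 0.386 CPM under SP (SD, n = 3 each), with overlapping groups.

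The other receptors of stress and arousal peptides had no p under 0.05. *Crhr1*, the main CRH receptor, had 10.5 ± 0.232 CPM under vehicle and 10.6 ± 0.852 CPM under SP (SD, n = 3 each), a log2FC of 0.015 (SE 0.0961, FDR 0.972). The orexin receptor genes *Hcrtr1* and *Hcrtr2* both had lower means under SP, with log2FC values of -0.38 (FDR 0.642) and -0.39 (FDR 0.617) and overlapping groups. With mice left out these ranged from -0.58 to -0.16 for *Hcrtr1*, nearest to 0 without SP mouse 1, and from -0.60 to -0.10 for *Hcrtr2*, nearest to 0 without SP mouse 2. *Galr1* had a log2FC of -0.63 with a SE of 0.751, so that its 1 to 17 counts in each library do not show a difference of this size.

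None of the 3 receptors that use Gs for PACAP and VIP had a p under 0.05. *Adcyap1r1* had 196 ± 6.21 CPM under vehicle and 192 ± 2.59 CPM under SP (SD, n = 3 each), a log2FC of -0.034 (SE 0.0511, FDR 0.860). This stood beside a log2FC of -1.16 (SE 0.298, FDR 0.351) in the PACAP gene *Adcyap1*, which had 5.33, 7.52 and 5.95 CPM under vehicle and 3.62, 1.58 and 3.37 CPM under SP, by the labels. *Vipr1* had a log2FC of -0.054 (FDR 0.836), and *Vipr2*, at 1.05 CPM under vehicle, 0.45 (SE 0.284, FDR 0.633).

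Vasopressin, oxytocin and bombesin-like peptides act through Gq/11-coupled receptors. *Oxtr*, the oxytocin receptor, had 10.9 ± 0.283 CPM under vehicle and 11.04 ± 0.553 CPM under SP (SD, n = 3 each), a log2FC of 0.014 (SE 0.0903, FDR 0.972). *Nmbr*, the neuromedin B receptor, had a log2FC of -0.28 (FDR 0.678), and *Grpr* 0.048 (FDR 0.972). *Avpr1a* and *Avpr1b* had log2FC values of -0.62 and 0.13 with SEs of 0.627 and 0.481, too wide to show a direction.

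Endothelin and CGRP receptors act largely on vessels and glia. *Ednrb*, which astrocytes express strongly, had 51.5, 54.4 and 59.8 CPM under vehicle and 50.1, 49.2 and 51.8 CPM under SP. It was lower in 3 of 3 replicate pairs, but SP 3 was above the lowest vehicle library, and the log2FC was -0.13 (SE 0.0607, FDR 0.521). *Ednra*, the endothelin receptor of vascular smooth muscle, had -0.15 (FDR 0.731), *Calcrl* -0.070 (FDR 0.872) and *Ramp1* 0.10 (FDR 0.670), with overlapping groups in each.

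By their main G protein, 13 tested genes were Gq/11-coupled, with a median log2FC of -0.28 and 3 genes at an unadjusted p under 0.05, all with lower levels. The 13 Gi/o-coupled genes had a median of -0.14, with 2 genes lower and 2 higher at this p. The 7 Gs-coupled genes had a median of -0.034, with 1 lower and 1 higher. Genes at this p made up 23.1% of the Gq/11, 30.8% of the Gi/o and 28.6% of the Gs list, beside 10.1% of all tested genes. The medians describe the lists, and the difference between them was not tested.

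The 14 markers of cortical projection and subplate neurons, cells outside the hippocampus proper, also had lower summed levels in the SP libraries. Their median log2FC was -0.25. At an unadjusted p under 0.05, 7 of them had lower and 1 had higher levels, where 5.59% and 4.48% of all tested genes did. The summed level of the 14 markers was 515 to 550 CPM under vehicle and 403 to 497 CPM under SP, lowest in SP 2, and none of them was at 0. Other neurons from outside the hippocampus did not separate the groups. The striatal markers summed to 26.7 to 35.7 CPM under vehicle and 21.7 to 29.1 CPM under SP. The thalamic and habenular markers summed to 77.2 to 141 CPM under vehicle and 87.6 to 98.1 CPM under SP. *Ccn2*, a gene of subplate neurons, had a log2FC of -1.11 (SE 0.192, FDR 0.308), and *Cux2*, a factor of upper cortical layers, -0.64 (SE 0.122, FDR 0.308).

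In SP 2, where the sum of the cortical markers was lowest, *Rxfp1*, *Cckbr*, *Trhr* and *Ntsr1* were lowest as well. So were the summed markers of CA1 pyramidal cells, GABAergic interneurons and striatal neurons, at 615, 501 and 21.7 CPM. Those of dentate granule cells, oligodendrocytes and astrocytes were highest in SP 2, at 459, 3590 and 4208 CPM. On the log2 scale relative to the vehicle mean, the summed cortical markers stood at -0.18, -0.39 and -0.092 in SP mice 1 to 3, *Cckbr* at -0.55, -1.01 and -0.47, and *Rxfp1* at -0.92, -1.52 and -0.65. The order of the SP mice was the same in these 3 measures. In vehicle mice 1 to 3 the cortical sum stood at 0.056, -0.040 and -0.018 and *Cckbr* at 0.031, -0.023 and -0.0089. *Rxfp1*, at -0.084, -0.0025 and 0.082, had another order there. The summed markers of CA3 pyramidal cells ran opposite to the cortical sum, from 154 to 181 CPM under vehicle and from 190 to 225 CPM under SP, highest in SP 2. Of these 6 markers, 4 had higher levels and 1 had a lower level at an unadjusted p under 0.05, where 4.48% and 5.59% of all tested genes did. The higher ones included *Homer3* with a log2FC of 0.41 (FDR 0.231), *Bok* with 0.38 (FDR 0.308) and *Iyd* with 0.88 (FDR 0.308). The part of these markers in the receptor differences was not tested.

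**Figure D4:**
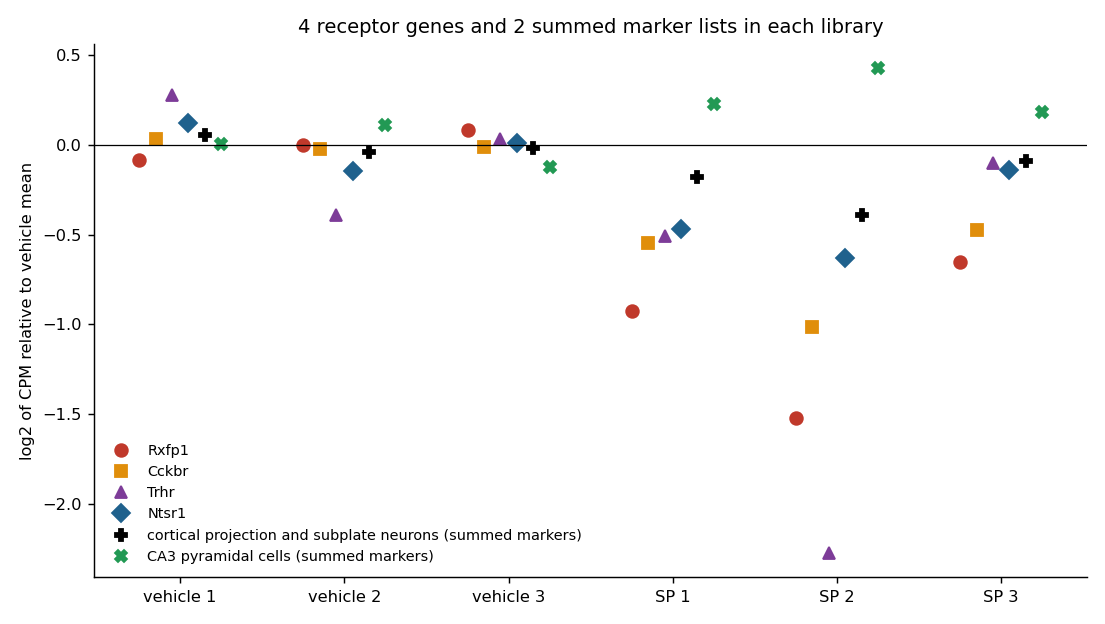
Log2 of the CPM in each library relative to the vehicle mean for *Rxfp1*, *Cckbr*, *Trhr*, *Ntsr1*, the summed markers of cortical projection and subplate neurons and the summed markers of CA3 pyramidal cells. In SP 2 the 4 receptor genes and the cortical sum are at their lowest and the CA3 sum at its highest.

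The peptide ligands of these receptors formed a list of 30 genes, of which 21 could be tested and 0 were called, beside 0.0293% of all tested genes. The list had a median log2FC of -0.18. Beside 10.1% of all tested genes, 23.8% of the list had an unadjusted p under 0.05, 3 genes higher and 2 lower. The lowest p belonged to *Adcyap1*, then to *Vip*, with 14.3 ± 1.07 CPM under vehicle and 11.4 ± 2.13 CPM under SP (SD, n = 3 each) and a log2FC of -0.34 (FDR 0.404), and then to *Nmb*, with 1.47 ± 0.199 and 2.41 ± 0.409 CPM and a log2FC of 0.71 (FDR 0.404).

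Of 38 other neuropeptide receptor genes, 20 could be tested and 0 were called, beside 0.0293% of all tested genes. The list had a median log2FC of -0.20. Beside 10.1% of all tested genes, 25% of the list had an unadjusted p under 0.05, 4 genes lower and 1 higher. *Npsr1*, the neuropeptide S receptor, had 1.42, 1.41 and 1.42 CPM under vehicle and 0.895, 0.208 and 0.808 CPM under SP, a log2FC of -1.22 (SE 0.399, FDR 0.417). *Crhr2*, the urocortin receptor, had -0.69 (FDR 0.430) and *Mc3r*, a melanocortin receptor, -1.31 (FDR 0.455), both lowest in SP 1, the library low in choroid plexus markers. In SP mice 1 to 3 *Crhr2* was at 2.68, 3.28 and 6.82 CPM and *Mc3r* at 0.170, 0.332 and 0.674 CPM. The summed choroid plexus markers were at 173, 2793 and 3946 CPM in these mice. Whether choroid plexus bears on these values was not tested.

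The G proteins, adenylyl cyclases, phospholipases and receptor kinases that receptors act through were all detected, and 0 of 35 were called, beside 0.0293% of all tested genes. The list had a median log2FC of 0.010. An unadjusted p under 0.05 was found for 14.3% of it, 2 genes higher and 3 lower, beside 10.1% of all tested genes. *Rgs14*, a CA2-rich regulator of G protein signaling, had 82.9 ± 4.74 CPM under vehicle and 98.2 ± 5.26 CPM under SP (SD, n = 3 each), a log2FC of 0.25 (FDR 0.335). *Rgs4*, which shortens Gi/o and Gq/11 signals, had 136 ± 2.27 and 119 ± 5.82 CPM and a log2FC of -0.19 (FDR 0.384). *Adcy8*, a calcium-stimulated adenylyl cyclase, had -0.33 (FDR 0.437).

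**Figure D5:**
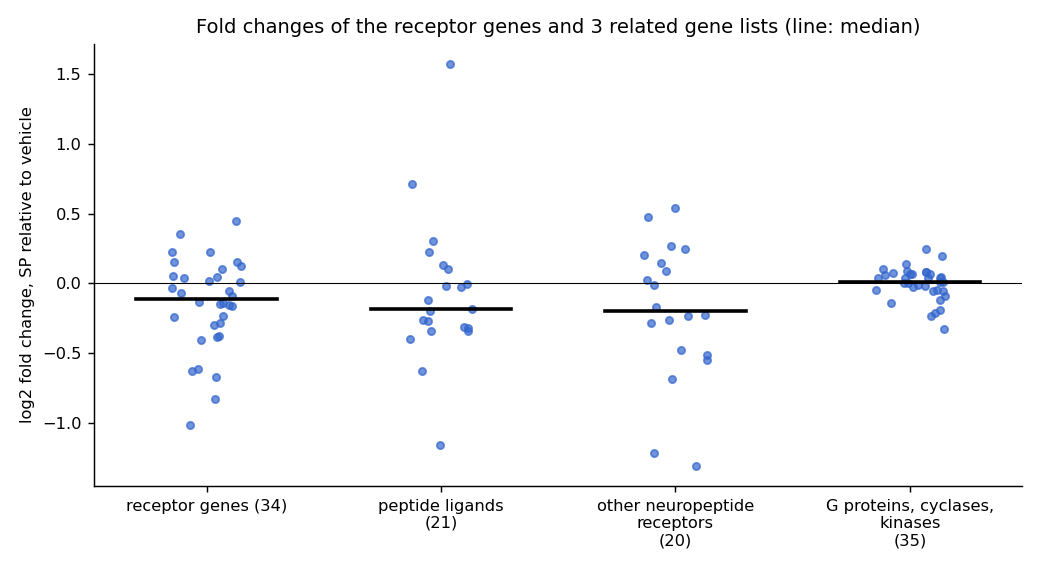
Log2FC of SP relative to vehicle for the 34 tested receptor genes, 21 peptide ligands, 20 other neuropeptide receptors and 35 G proteins, cyclases and receptor kinases, with 1 point for each gene and a line at the median. The medians are -0.11, -0.18, -0.20 and 0.010.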

How the data were processed

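Hippocampal RNA of 3 SP and 3 vehicle mice was measured by stranded mRNA sequencing. The authors trimmed the reads with Trim Galore, aligned them to GRCm38 with STAR and deposited estimated counts per gene from Salmon. The annotation release is not given in the sources used here. Of the values, 9.77% were not whole and were rounded. Columns were matched to mice by their labels. Genes were kept by filterByExpr of edgeR 4.0.16 (minimum count 10, minimum total 15), normalized by TMM and tested with glmQLFit and glmQLFTest in R 4.3.3 with the replicate number as a block, because the study's methods adjust for replicates. FDR values are Benjamini-Hochberg adjusted p-values over 17069 genes. DESeq2 1.42.0, voom of limma 3.58.1, other normalizations, other filters and left-out mice were alternatives. The fits were also run on simulated counts that had no replicate effect and no outlying library. That run does not show which fit suits these data.

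The labels call the replicate number a batch. Deviations from the group means correlated across genes between same-numbered mice with Pearson's r of 0.0140, -0.0656 and 0.0734. Whether mice of a group were otherwise handled apart is not stated. For 1 gene with 3 mice in each group, the smallest p of a two-sided exact permutation test that ignores the replicate pairs is 0.1. Permuting within the pairs allows fewer arrangements, so its smallest p is larger.

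Lengths and positions came from GENCODE M21 (GRCm38) and promoters from RefSeq. Members and gene lists were chosen with earlier results of these data known. Values for each library are given for receptor genes with an unadjusted p under 0.05 or groups that did not overlap, besides *Rxfp3*, *Trhr2*, *Grpr* and *Ednrb*, which were chosen after their values were seen. Of each other list, up to 3 genes of lowest p were named, and the ligand of each such receptor. Some of these genes are not reported here.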

Additional observations from a re-analysis of the deposited data

How the results depend on the processing

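The 34 receptor genes were refitted under 17 alternatives, each where it passed the filter on low counts. The number called, 0, became 3 with no filter on low counts (*Rxfp1*, *Cckbr* and *Trhr*, where 1.37% of all genes were called), 1 with DESeq2 and the replicate block, and 2 with DESeq2 and no replicate block. With mice left out it ranged from 0 to 2. Without the replicate block edgeR called 0 and found 7 genes at an unadjusted p under 0.05, and it changed no call. The number of genes at an unadjusted p under 0.05, 9, was 4 with DESeq2 and the block and 4 with DESeq2 and no block, and ranged from 3 (without replicate 1) to 8 with replicate pairs left out and from 5 (without vehicle replicate 1 or 3) to 9 with single mice left out. The share of all genes at this p was 10.1% in the main fit and 11.9% in edgeR without the block. It was not counted in the other alternatives, so these numbers cannot be set beside it. *Rxfp1* was called in 7 of 17 alternatives, *Cckbr* in 3 (without SP replicate 3 its log2FC was -0.77, FDR 0.0564) and *Trhr* in 1. The cause of these changes was not tested.

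The sign changed only with mice left out, in 23 refits of 9 genes with small or uncertain differences. The log2FC ranged, first without replicate pairs and then without single mice and without the block, from -0.26 to 0.0034 and from -0.26 to -0.015 for *Oprk1*, from -0.021 to 0.12 and from -0.015 to 0.087 for *Oprl1*, with -0.015 also without vehicle replicate 3, from -0.45 to 0.048 and from -0.35 to -0.026 for *Oprm1*, from -0.033 to 0.086 and from -0.043 to 0.076 for *Crhr1*, with -0.0023 without vehicle replicate 1, from -1.89 to 0.32 and from -1.65 to 0.20 for *Avpr1a*, from -0.47 to 0.62 and from -0.24 to 0.36 for *Avpr1b*, with -0.084 without SP replicate 2, from -0.025 to 0.055 and from -0.027 to 0.040 for *Oxtr*, with -0.0049 without vehicle replicate 3, from -0.092 to 0.22 and from -0.072 to 0.26 for *Grpr*, with -0.061 without SP replicate 2, and from -0.14 to 0.019 and from -0.14 to 0.039 for *Calcrl*. The median over the receptor genes stayed between -0.14 and -0.072 in all alternatives. *Galr1* and *Trhr2*, at or under 17 counts, were limited by depth, and *Galr1* could be tested in 12 alternatives.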

Other observations

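Other cell types were followed by marker lists, of which 0 genes were called, beside 0.0293% of all tested genes. At an unadjusted p under 0.05, 4.48% of all tested genes were higher and 5.59% lower. The 7 oligodendrocyte markers summed to 2145 to 2464 CPM under vehicle and 2486 to 3590 CPM under SP, with a median log2FC of 0.35 and 5 genes higher at an unadjusted p under 0.05, a direction that rests on the group labels. *Cnp* and *Cldn11*, genes of the myelin sheath, had log2FC values of 0.30 and 0.39. The 6 dentate granule cell markers had a median of 0.24, and 1 of them, *C1ql2*, was higher at this p.

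The 8 astrocyte markers, cells that also carry *Ednrb* and *Ntsr2*, had a median log2FC of -0.0048, and the 10 endothelial and mural cell markers one of -0.014. The 8 GABAergic interneuron markers had a median of -0.11, with *Erbb4* at -0.35 (FDR 0.315). The 6 CA1 markers had a median of -0.035, with 2 genes higher and 1 lower at this p, *Fibcd1* at 0.26 (FDR 0.308), *Gpr161* at 0.20 (FDR 0.351) and *Mpped1* at -0.18 (FDR 0.416). The 7 choroid plexus markers had a median of -1.13, and their sum was lowest in SP 1. The 5 striatal and the 5 thalamic and habenular markers had medians of 0.028 and -0.10, with *Slc17a6*, which subicular neurons also express, at -0.48 (FDR 0.308).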
